A study of Ceratotherium simum simum with 6 samples.

Results

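The splicing regulators described here are SR proteins, heterogeneous nuclear ribonucleoproteins (hnRNPs) and other RNA-binding proteins that choose splice sites, in granulosa cells of the southern white rhinoceros. They were taken by name, from a list of 48 UniProt-style gene names in the study's table of transcript positions. Of the 48, 46 had a locus among 25906 loci in all, and 43 were modelled on both DNA strands and had enough counts to be tested. SRSF6 and U2AF1 matched no locus of that name and were not analysed here. RNA-seq libraries came from 2 animals, rhino 2 and rhino 1, with 3 libraries each. Both animals were labelled wild type. Their cells were in vivo granulosa cells collected before in vitro maturation (IVM) of the oocyte, and the labels name no other treatment. Each group is 1 animal, and nothing in the labels says whether its 3 libraries came from separate follicles, collections or aliquots. A difference between the groups is therefore a difference between these libraries of 2 animals, and the p-values measure the spread between the libraries of an animal.

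Splicing removes introns from the primary transcript, and the spliceosome finds exons partly through proteins that bind short RNA motifs nearby. SR proteins carry arginine-serine repeats and mostly favour use of the exon they bind, while many hnRNPs coat the transcript and mostly hinder it, so the balance between them shifts which isoforms a cell makes. Many of these genes also splice their own transcripts, through alternative exons that can carry a premature stop codon, and so adjust their own level. Granulosa cells surround the oocyte, make oestradiol and inhibin, and answer the gonadotropins.

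Library totals were 703708 to 1523904 counts in rhino 2 and 672410 to 13288936 counts in rhino 1. In rhino 1 replicate 1, 94.5% of the counts lay on genes with a name. In the other 5 libraries 2.31% to 2.61% did, and most counts lay on unnamed models of the opposite strand. Both strands of a locus were therefore summed, and levels are given as CPM (counts per 1000000 of the library total). At the regulators, the opposite-strand models held 518 introns, and 444 of these (85.7%) had the same ends as one in the named model. Reads of a gene and of an antisense transcript at the same place cannot be told apart in these sums. A count of 0 allows up to 0.226 CPM in rhino 1 replicate 1 and up to 4.46 CPM in rhino 1 replicate 2, for counting error only. All 12 granulosa markers, among them FSHR, FOXL2 and CP19A (the aromatase gene CYP19A1), had counts in every library. Of these 12, 4 (33.3%) had libraries that did not overlap between the animals, where 24.4% of all loci tested did not overlap. MIS, the gene of anti-Müllerian hormone, averaged 349 CPM in rhino 2 and 83.7 CPM in rhino 1, and it rose past edgeR's threshold (log2 fold change 2.16, SE 0.22, adjusted p = 0.0192). CP19A averaged 226 CPM in rhino 2 and 2413 CPM in rhino 1 (edgeR adjusted p = 0.0536), and the inhibin subunits INHBA and INHBB were also lower in rhino 2, at edgeR log2 fold changes of -1.56 and -1.64. The summed level of the 12, of which INHA was the largest part, was 13072 to 19328 CPM in rhino 2 and 17961 to 29139 CPM in rhino 1. Of the oocyte markers, 5 of 6 had no counts, although none of the 6 was modelled on both strands.

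The summed levels of 3 other marker lists did not overlap between the animals. The theca and luteal list (6 genes, CP17A and INSL3 without counts) summed to 65.4 to 202 CPM in rhino 2 and 247 to 353 CPM in rhino 1. LSHR and CP11A were lower in rhino 2, 3BHS overlapped, and STAR averaged 34.3 CPM in rhino 2 and 6.60 CPM in rhino 1, the other way. The endothelial list (6 genes, CADH5 and VGFR2 without counts) summed to 169 to 257 CPM in rhino 2 and 57.3 to 106 CPM in rhino 1, nearly all of it from TIE2, with VWF, PECA1 and EGFL7 at or under 3.94 CPM in each library. The red blood cell list (3 genes, 2 with a locus, HBA without counts) summed to 387 to 809 CPM in rhino 2 and 1963 to 4335 CPM in rhino 1. The leukocyte, smooth muscle and pericyte, and epithelium lists overlapped in their sums. Loci modelled on 1 strand only were 4 of 5 in the leukocyte list, 3 of 6 endothelial, and 2 of 6 theca and luteal. There was 1 each in the red blood cell, smooth muscle and epithelium lists. CP17A, INSL3, CADH5, VGFR2 and HBA are such loci, where libraries counted on the opposite strand can show few counts. In the smooth muscle list MYH11 averaged 721 CPM in rhino 2 and 188 CPM in rhino 1, CNN1 averaged 18.5 CPM in rhino 2 and 101 CPM in rhino 1, neither overlapped, and ACTA reached 2292 CPM in rhino 1 replicate 2. The part of these differences in the results below was not tested. In such bulk libraries, fewer cells of a type and less RNA per cell cannot be told apart.

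Of the 43 regulators modelled on both strands, 42 had counts in every library, and RBP56 had none in rhino 1 replicate 2. The filter on low counts, which these 43 passed, already asks for counts in several libraries. Together the 46 with a locus took 1.58%, 1.47% and 1.61% of the counts in the 3 libraries of rhino 2, and 1.67%, 1.43% and 1.62% in those of rhino 1. For the 43 on both strands the share was 1.55% ± 0.074 in rhino 2 and 1.53% ± 0.096 in rhino 1 (SD, n = 3 each). The animals overlapped, and the exact permutation test, two-sided, gave p = 0.7. With 3 libraries against 3 that test cannot go below 0.1.

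Genes were ordered by CPM per kb of exonic length, using the model on the strand that holds each library's counts. ROA1 and ROA2, which encode hnRNP A1 and hnRNP A2/B1, led. ROA1, a classical exon silencer that binds UAG-containing motifs, lies on scaffold 17 at 15434025 to 15438541. Its level was 585, 587 and 636 CPM per kb in rhino 2, against 797, 496 and 545 CPM per kb in rhino 1. ROA2 (scaffold 1, 52651861 to 52660648) is a close relative that also binds RNAs bound for export and transport. ROA2 stood at 350, 368 and 318 CPM per kb in rhino 2, against 831, 395 and 559 CPM per kb in rhino 1. For ROA1 the library of rhino 1 with its counts on the named strand was the highest of all 6, and for ROA2 all 3 libraries of rhino 1 were above those of rhino 2.

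The next 6 places went to a paraspeckle protein and to 5 hnRNPs. NONO, which pairs with SFPQ in the DBHS family and holds paraspeckles together, had 246, 223 and 247 CPM per kb in rhino 2, against 317, 259 and 246 CPM per kb in rhino 1 (scaffold X, 58118574 to 58125569). HNRPL, a binder of CA-rich RNA, had 133, 208 and 199 CPM per kb in rhino 2, against 319, 260 and 292 CPM per kb in rhino 1 (scaffold 33, 22977803 to 22989669). HNRPD, also called AUF1, binds AU-rich elements of unstable mRNAs (scaffold 8, 66874744 to 66892808). It stood at 193, 209 and 163 CPM per kb in rhino 2, against 321, 211 and 275 CPM per kb in rhino 1. HNRPU, a nuclear scaffold protein that binds RNA and DNA, had 221, 199 and 182 CPM per kb in rhino 2, against 293, 182 and 240 CPM per kb in rhino 1 (scaffold 36, 30747748 to 30757777). HNRPK, a KH-domain protein of C-rich sequences, had 174, 166 and 213 CPM per kb in rhino 2, against 248, 211 and 252 CPM per kb in rhino 1 (scaffold 19, 50562922 to 50575623). HNRH1, which binds runs of G, had 213, 192 and 214 CPM per kb in rhino 2, against 203, 212 and 180 CPM per kb in rhino 1 (scaffold 4, 88965026 to 88973909). Libraries of the animals overlapped for NONO, HNRPU, HNRPK and HNRH1, and all libraries of rhino 1 were higher for HNRPL and HNRPD.

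The mean of the animals' means ran from 608 CPM per kb for ROA1 to 6.59 CPM per kb for RFOX2, a 92.2-fold span. Neighbours in this order overlapped over the 6 libraries in 41 of 42 cases, and the exception was the step from ROA2 at 470 CPM per kb to NONO at 256 CPM per kb. That step was narrow, at 318.2 CPM per kb in the lowest library of ROA2 and 317.5 CPM per kb in the highest of NONO. ROA2 overlapped HNRPL and HNRPD, whose highest libraries were at 319 and 321 CPM per kb. RFOX2 (scaffold 25, 33620822 to 33882986), known as RBFOX2 and a regulator of muscle and epithelial exons in mammals, was the lowest. It stood at 7.64, 6.79 and 5.40 CPM per kb in rhino 2, against 4.85, 11.5 and 3.30 CPM per kb in rhino 1, so that the libraries of rhino 1 lay on both sides of those of rhino 2. The SR proteins filled the middle, from SRSF5 at 166 CPM per kb (place 10) to SRSF4 at 34.2 CPM per kb (place 36). QKI, MBNL1, MBNL2, CELF1, RFOX2, KHDR1, ELAV1 and TIA1 were grouped as tissue-regulated factors, a label that was not tested here. Among them, KHDR1 at 80.2 CPM per kb was the highest and stood at place 27. Several of these genes have processed copies elsewhere in mammalian genomes, and how reads with several matching places were counted is not given in the sources used here.

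**Figure D1:**
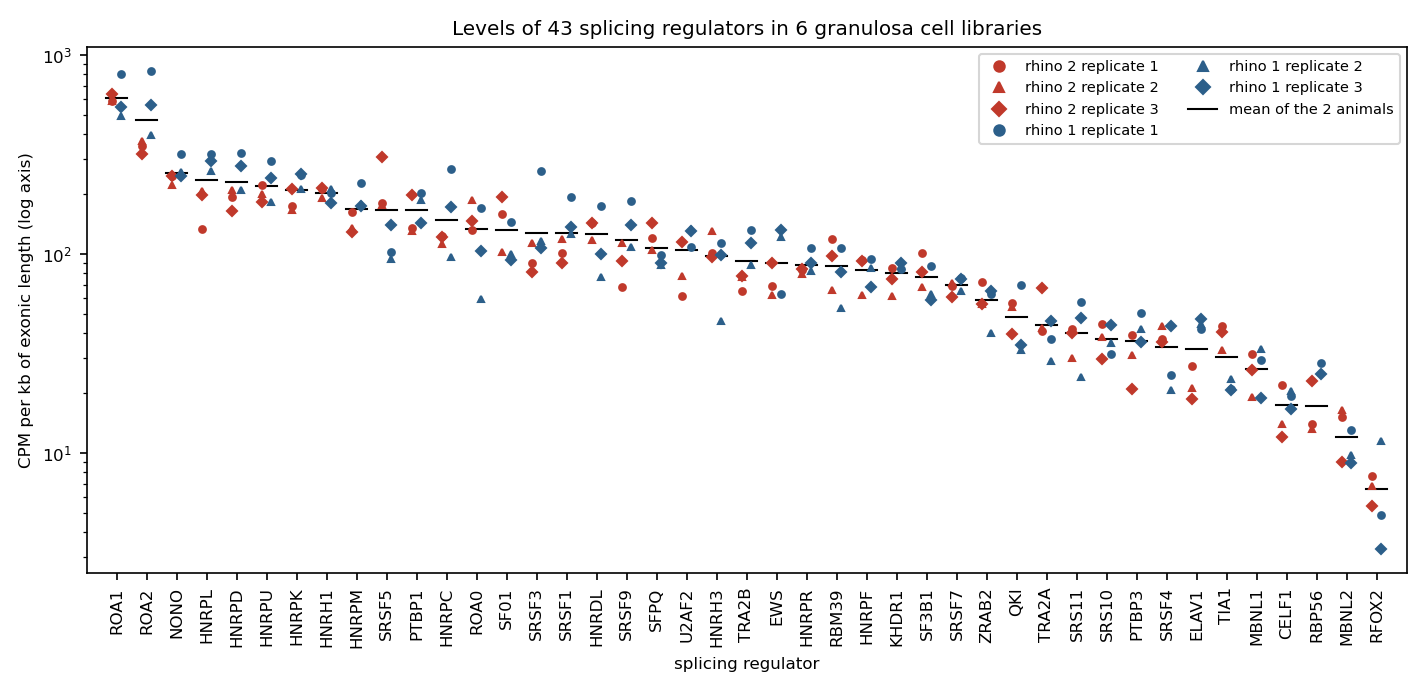
CPM per kb of exonic length on a log axis for the 43 splicing regulators modelled on both strands, in order of level, with 1 point per library and a line at the mean of the 2 animals' means. By these means ROA1 and ROA2 stand above the other 41, and RFOX2 is the lowest at 6.59 CPM per kb. Over single libraries ROA2 overlaps HNRPL and HNRPD. RBP56 in rhino 1 replicate 2, at 0, cannot be drawn on this axis.

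Between the animals, none of the 43 regulators passed an adjusted p of 0.05 in edgeR's quasi-likelihood test, which called 0.551% of the 8532 loci tested. At an unadjusted p under 0.05, 9 of the 43 were called by edgeR, 7 higher and 2 lower in rhino 2, where 12.9% of all loci were called. DESeq2 called 7 of the 43 at an adjusted p of 0.05, against 7.34% of all loci. These were ROA0, SRSF5, TIA1, HNRDL and SFPQ, higher in rhino 2, and ELAV1 and EWS, lower in rhino 2. The limma-voom test called 4, namely ROA0, SRSF5, TIA1 and RFOX2, all higher in rhino 2, against 8.93% of all loci. Over all loci, limma-voom's calls were 618 higher and 144 lower in rhino 2, and DESeq2's were 311 higher and 315 lower. In edgeR the regulators called were also 0 in each of the following fits. With an offset for the lengths of the models, 1.58% of all loci were called, and 4 regulators and 14.4% of all loci had an unadjusted p under 0.05. With loci on both strands alone, 1.77% were called, and 10 regulators and 14.3% of loci had an unadjusted p under 0.05. Without rhino 1 replicate 1, 0.572% were called, and 10 regulators and 14.3% of loci had an unadjusted p under 0.05. Without any 1 of the other 5 libraries, 0 to 4 loci were called in place of 47. The median log2 fold change of rhino 2 over rhino 1 was 0.09 over the 43 regulators and 0.04 over all loci tested, with 25 regulators positive and 18 negative. Libraries of the animals did not overlap in CPM for 14 regulators, 7 higher and 7 lower in rhino 2. That is 32.6% of the regulators, where 24.4% of all loci tested did not overlap.

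**Figure D2:**
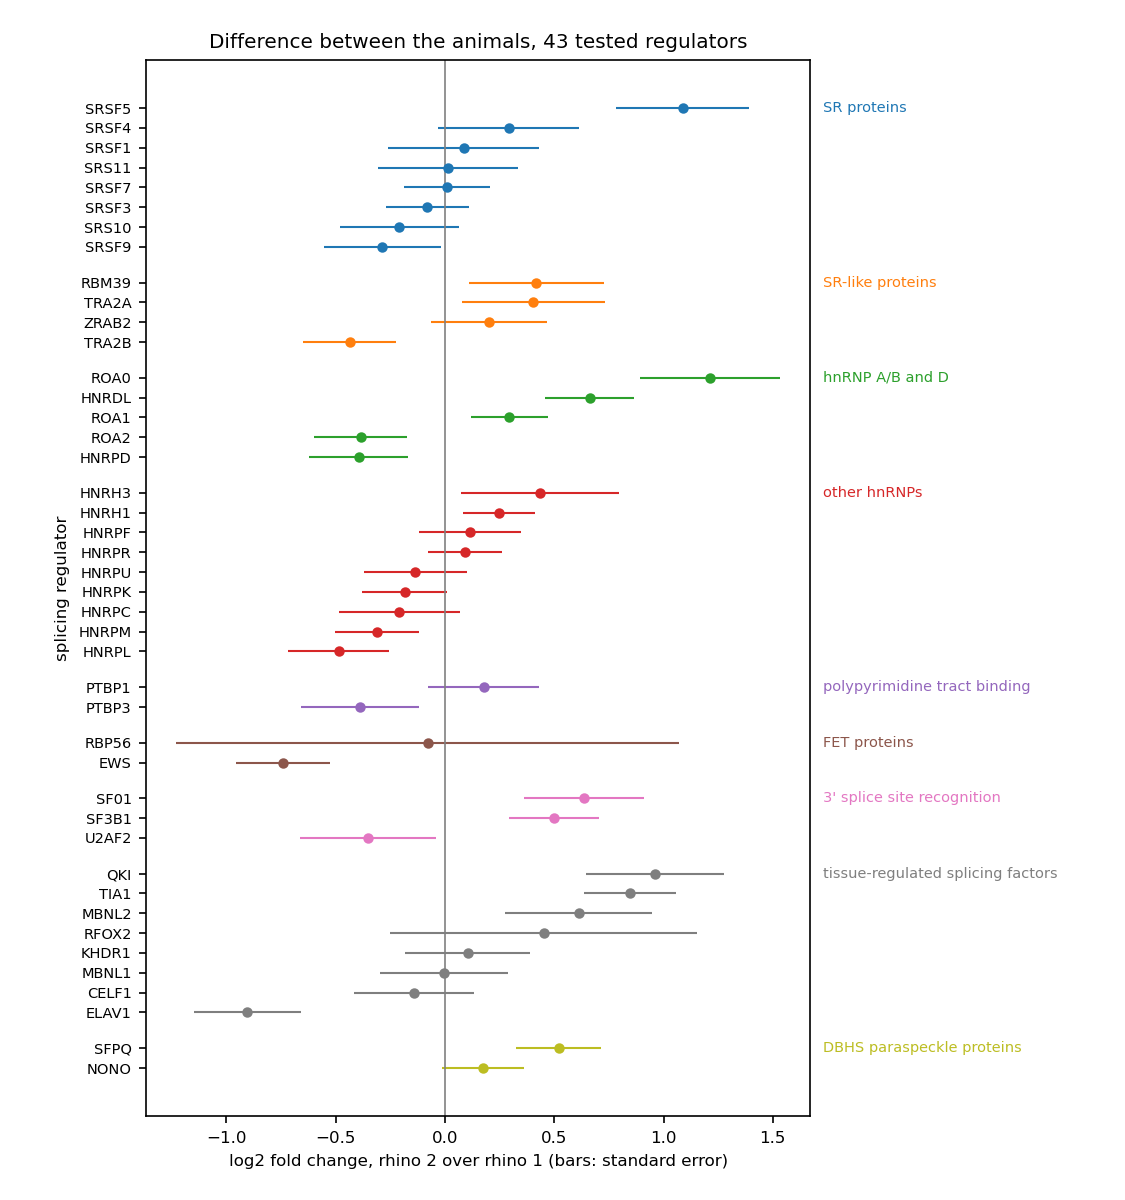
Log2 fold change of rhino 2 over rhino 1 by edgeR for the 43 tested regulators, grouped by family, with bars of 1 standard error. Values run from -0.90 for ELAV1 to 1.21 for ROA0, and none passed an adjusted p of 0.05.

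Of the 10 SR proteins listed, 8 were tested and none passed edgeR's threshold, with log2 fold changes of 5 above and 3 below 0. SRSF5, also known as SRp40, activates exons and lies on scaffold 24 at 33608322 to 33613204. It had 504, 492 and 858 CPM in rhino 2, against 273, 266 and 394 CPM in rhino 1. Every library of rhino 2 was above every library of rhino 1, by a log2 fold change of 1.09 (SE 0.30; edgeR adjusted p = 0.178, DESeq2 adjusted p = 0.0137, limma-voom adjusted p = 0.0498). The other 7 tested SR proteins lay between -0.29 (SRSF9) and 0.29 (SRSF4), and the animals overlapped in each. SRSF7, an export adaptor as well as a splicing factor, had 124, 128 and 109 CPM in rhino 2, against 130, 117 and 135 CPM in rhino 1. SRSF1, the founding member of the family, had 271, 318 and 240 CPM in rhino 2, against 145, 338 and 365 CPM in rhino 1, a log2 fold change of 0.09 that is -0.22 without rhino 1 replicate 1. SRS11 was named at 2 loci, so its value is uncertain.

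SR-like proteins share the arginine-serine repeats without the classical domain order, and none of the 4 passed edgeR's threshold. TRA2B, a relative of the Drosophila sex-determination factor transformer-2, had 173, 205 and 206 CPM in rhino 2, against 305, 233 and 301 CPM in rhino 1. All libraries of rhino 1 were the higher ones (log2 fold change -0.44, SE 0.21, edgeR adjusted p = 0.499). Its paralogue TRA2A lay on the other side of 0, with 86.6, 89.5 and 143 CPM in rhino 2, against 96.6, 61.0 and 97.3 CPM in rhino 1, and overlapped between the animals. RBM39, a cofactor of transcription and splicing, and ZRAB2, a zinc-finger splicing factor, had log2 fold changes of 0.42 and 0.20.

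In the hnRNP A/B and D group, all 5 tested members had libraries that did not overlap in CPM, where 24.4% of all loci did not, and none passed edgeR's threshold. Of the 5, 3 were higher and 2 lower in rhino 2. Per kb, 2 of the 5, ROA2 and HNRPD, did not overlap. ROA0 encodes hnRNP A0, a binder of AU-rich mRNAs, from a single exon on scaffold 4 at 56451339 to 56452247. It had 400, 566 and 446 CPM in rhino 2, against 155, 181 and 316 CPM in rhino 1. Its log2 fold change in edgeR was 1.21, the largest of the 43 in that fit (SE 0.32; edgeR adjusted p = 0.150, DESeq2 adjusted p = 0.00857, limma-voom adjusted p = 0.0310). It was 0.66, below SRSF5 and TIA1, once the lengths of the models were entered, and in limma-voom RFOX2 was above it. HNRDL, a relative of HNRPD (scaffold 8, 66947492 to 66953069), had 524, 431 and 522 CPM in rhino 2, against 349, 280 and 366 CPM in rhino 1. Its libraries did not overlap, at a log2 fold change of 0.66 (SE 0.20, edgeR adjusted p = 0.224), or 0.39 with model lengths in the fit.

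ROA1 was also higher in each library of rhino 2, with 1467, 1471 and 1593 CPM against 1347, 1242 and 1365 CPM in rhino 1 (edgeR log2 fold change 0.29, SE 0.18, adjusted p = 0.623). ROA2 went the other way, with 1120, 1179 and 1020 CPM in rhino 2, against 1571, 1266 and 1791 CPM in rhino 1 (edgeR log2 fold change -0.39, SE 0.21, adjusted p = 0.571). HNRPD was likewise lower in rhino 2, at 341, 368 and 288 CPM against 535, 372 and 486 CPM in rhino 1 (edgeR log2 fold change -0.39, SE 0.23, adjusted p = 0.602). In HNRPD the nearest libraries, rhino 2 replicate 2 and rhino 1 replicate 2, were 368 and 372 CPM, so the separation there is narrow. HNRPD and HNRDL are neighbours on scaffold 8 and lay on opposite sides of 0.

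Among the 9 other hnRNPs tested, 4 log2 fold changes were positive and 5 negative, and none passed edgeR's threshold. HNRPL had 276, 429 and 411 CPM in rhino 2, against 534, 537 and 604 CPM in rhino 1. Its libraries did not overlap (log2 fold change -0.49, SE 0.23, edgeR adjusted p = 0.474). HNRPM, which has several RNA recognition motifs, was the other whose libraries did not overlap, at 424, 352 and 338 CPM in rhino 2, against 554, 467 and 453 CPM in rhino 1 (edgeR log2 fold change -0.31, SE 0.19, adjusted p = 0.644). The more abundant HNRPU, HNRPK and HNRH1 overlapped between the animals. HNRPU had 804, 725 and 663 CPM in rhino 2, against 1025, 660 and 873 CPM in rhino 1 (edgeR log2 fold change -0.14, SE 0.23, adjusted p = 0.949). HNRPK had 577, 549 and 703 CPM in rhino 2, against 695, 697 and 833 CPM in rhino 1 (edgeR log2 fold change -0.18, SE 0.19, adjusted p = 0.873). HNRH1 had 926, 836 and 930 CPM in rhino 2, against 734, 921 and 782 CPM in rhino 1 (edgeR log2 fold change 0.25, SE 0.17, adjusted p = 0.683). In each of these 3 genes at least 1 library of an animal lay within the range of the other. HNRPC, HNRPF, HNRH3 and HNRPR lay between -0.21 and 0.44. The loci of HNRPC and HNRPF also carry a second gene name each (BSN and IVD), so counts of another gene may be in their sums.

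PTBP1 and PTBP3, polypyrimidine tract binders that repress many exons, overlapped between the animals, with log2 fold changes of 0.18 and -0.39. The FET proteins link transcription to splicing, and of these EWS (the gene EWSR1; scaffold 35, 17090584 to 17119457) had 171, 155 and 223 CPM in rhino 2, against 350, 303 and 326 CPM in rhino 1. Every library of rhino 2 was below every library of rhino 1 (log2 fold change -0.74, SE 0.22; edgeR adjusted p = 0.193, DESeq2 adjusted p = 0.0134, limma-voom adjusted p = 0.0504), and the log2 fold change was -0.36 with model lengths in the fit. RBP56, the gene TAF15, had 26.9, 25.6 and 44.5 CPM in rhino 2, against 56.7, 0 and 48.3 CPM in rhino 1. The library at 0 could hold up to 4.46 CPM, and no direction can be read from this gene.

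At the 3' splice site, SF01 (the gene SF1; scaffold 32, 26000054 to 26013578) binds the branch point, U2AF2 the polypyrimidine tract, and SF3B1 joins with the U2 snRNP. SF01 had 580, 377 and 708 CPM in rhino 2, against 436, 367 and 342 CPM in rhino 1 (edgeR log2 fold change 0.64, SE 0.27, adjusted p = 0.402). SF3B1 had 786, 530 and 631 CPM in rhino 2, against 530, 488 and 455 CPM in rhino 1 (edgeR log2 fold change 0.50, SE 0.21, adjusted p = 0.375; scaffold 9, 10362227 to 10400595). In both, 1 library of rhino 2 reached down to the range of rhino 1, and SF3B1 was named at 3 loci, of which the one with the most counts was used. U2AF2 was named at 2 loci, so its value, a log2 fold change of -0.35, is uncertain.

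None of the 8 factors grouped as tissue-regulated passed edgeR's threshold. TIA1, which binds U-rich RNA beside weak 5' splice sites and also gathers in stress granules, lies on scaffold 11 at 15931051 to 15959177. It had 184, 139 and 172 CPM in rhino 2, against 107, 99.6 and 87.6 CPM in rhino 1. Its libraries did not overlap, and it had the smallest edgeR adjusted p of the 43, while ROA0 had a smaller one in DESeq2 and limma-voom (log2 fold change 0.85, SE 0.21; edgeR adjusted p = 0.138, DESeq2 adjusted p = 0.00939, limma-voom adjusted p = 0.0415). ELAV1 encodes HuR, which stabilises AU-rich mRNAs (scaffold 40, 10522576 to 10557144). It had 63.7, 49.7 and 43.6 CPM in rhino 2, against 101, 104 and 110 CPM in rhino 1. All libraries of rhino 2 were below those of rhino 1 (log2 fold change -0.90, SE 0.24; edgeR adjusted p = 0.162, DESeq2 adjusted p = 0.0139, limma-voom adjusted p = 0.0710), and its locus carries a second gene name, VPS27.

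QKI, a STAR-family protein that guides splicing and circular RNA formation in other mammals, had 248, 234 and 173 CPM in rhino 2, against 71.2, 143 and 151 CPM in rhino 1 (scaffold 38, 21231239 to 21368145). The libraries did not overlap (log2 fold change 0.96, SE 0.32, edgeR adjusted p = 0.246), but the value was 0.32 with model lengths in the fit. MBNL2, a muscleblind protein known from myotonic dystrophy (scaffold 10, 14248880 to 14408080), had 66.9, 72.5 and 39.9 CPM in rhino 2, against 42.7, 43.1 and 39.3 CPM in rhino 1. The value of rhino 2 replicate 3 lay among those of rhino 1 (log2 fold change 0.61, SE 0.34, edgeR adjusted p = 0.570). RFOX2 had 51.2, 45.5 and 36.2 CPM in rhino 2, against 10.8, 77.3 and 22.1 CPM in rhino 1. Its log2 fold change was 0.45 (SE 0.70, edgeR adjusted p = 0.936) and 1.93 in limma-voom (adjusted p = 0.0316), and without rhino 1 replicate 2 the edgeR value was 1.52. MBNL1, CELF1 and KHDR1 (the gene of Sam68) lay between -0.14 and 0.10.

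The DBHS partners NONO and SFPQ, both needed for paraspeckles, were not called by edgeR. SFPQ (scaffold 21, 27695097 to 27710172) had 1009, 871 and 1192 CPM in rhino 2, against 805, 735 and 752 CPM in rhino 1. Its libraries did not overlap (log2 fold change 0.52, SE 0.20; edgeR adjusted p = 0.316, DESeq2 adjusted p = 0.0412). NONO overlapped, at 617, 560 and 621 CPM in rhino 2, against 449, 651 and 617 CPM in rhino 1 (edgeR log2 fold change 0.17, SE 0.19, adjusted p = 0.882).

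**Figure D3:**
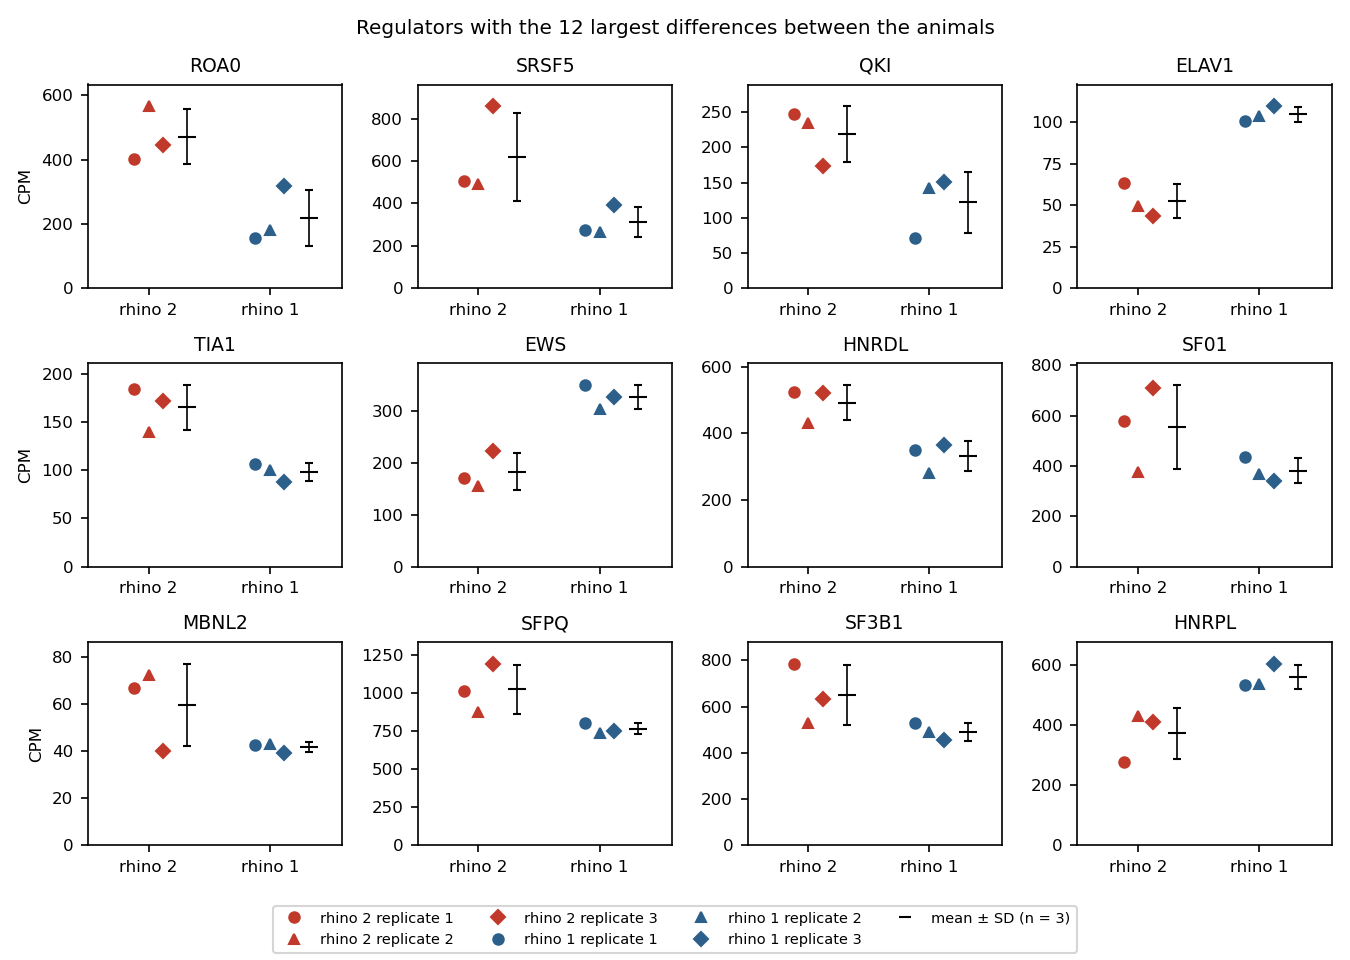
CPM in each library for the 12 regulators with the largest absolute log2 fold change, rhino 2 left of rhino 1, with the mean and SD of 3 libraries beside the points. ROA0, SRSF5, QKI, TIA1, HNRDL and SFPQ are higher in every library of rhino 2, and ELAV1, EWS and HNRPL are lower in every one, while SF01, MBNL2 and SF3B1 have a library of rhino 2 near those of rhino 1.

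Lengths of the gene models moved with some of these values. In 5 regulators the opposite-strand model was at least 2 times as long as the named one: 3042 against 909 bp for ROA0, 4355 against 1014 bp for QKI, 2682 against 747 bp for SRSF1, 6697 against 2232 bp for RFOX2 and 3912 against 1497 bp for SRSF3. In 4 of these 5, rhino 1 replicate 1, the library counted on the named strand, was the lowest of the 6 in CPM, and it was the lowest in 5 of the other 38. EWS had the reverse, with 2481 bp opposite and 5542 bp named. Among all loci on both strands with a mean of at least 20 CPM, the log2 ratio of that library to the mean of the other libraries of rhino 1 followed the same ratio of lengths. Its median was -1.84 over the 232 loci whose opposite-strand model was more than 4 times as long, and 0.31 over the 2209 whose named model was the longer.

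Scaled per kb, 5 of the 14 regulators whose libraries did not overlap in CPM came to overlap, namely ROA0, QKI, HNRDL, EWS and ROA1. Without rhino 1 replicate 1, their edgeR log2 fold changes were 1.024, 0.69, 0.73, -0.65 and 0.34, in that order. HNRDL had 349, 280 and 366 CPM in rhino 1, in order of replicate, and 173, 76.3 and 99.8 per kb. EWS had 350, 303 and 326 CPM, and 63.1, 122 and 131 per kb. ROA1 had 1347, 1242 and 1365 CPM, and 797, 496 and 545 per kb. In these 3, replicate 1 stood further apart per kb than in CPM. Which scale is nearer the transcript level was not tested. Per kb, ROA0 had 132, 186 and 147 in rhino 2, against 170, 59.6 and 104 in rhino 1, and the high value in rhino 1 is the library on the named strand. The 9 whose libraries overlapped on neither scale were SRSF5, SFPQ and TIA1, higher in rhino 2, and TRA2B, ROA2, HNRPD, HNRPL, HNRPM and ELAV1, lower in rhino 2. SRSF1 joined them per kb only, at 101, 119 and 89.5 CPM per kb in rhino 2, against 194, 126 and 136 CPM per kb in rhino 1. Of all tested loci on both strands, 27.0% did not overlap per kb, beside 10 of the 43 regulators.

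**Figure D4:**
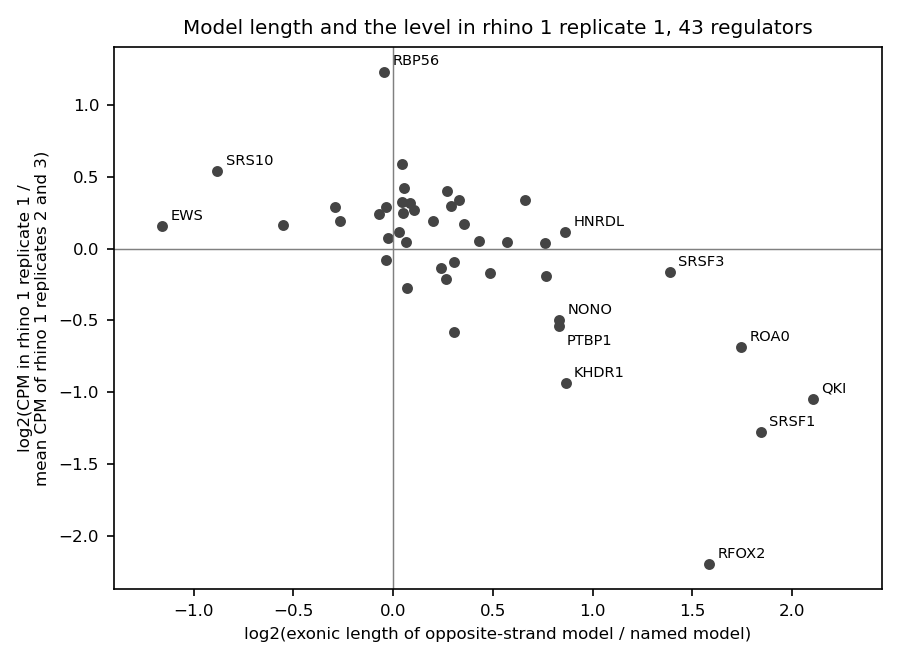
Each point is 1 of the 43 regulators. The horizontal axis is the log2 ratio of the exonic lengths of its opposite-strand and named models, and the vertical axis the log2 ratio of CPM in rhino 1 replicate 1 to the mean of rhino 1 replicates 2 and 3. The 5 regulators with an opposite-strand model at least 2 times as long (ROA0, QKI, SRSF1, RFOX2 and SRSF3) lie below 0 on the vertical axis.

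Ratios between paralogues within a library do not depend on how libraries are scaled. Per kb they do depend on the model lengths, which differ between rhino 1 replicate 1 and the other libraries. The ratio of TRA2A to TRA2B, per kb, was 0.631, 0.552 and 0.876 in rhino 2, against 0.285, 0.330 and 0.407 in rhino 1, so TRA2A made up more of the pair in every library of rhino 2. NONO to SFPQ was 2.03, 2.14 and 1.73 in rhino 2, against 3.23, 2.95 and 2.73 in rhino 1. ROA1 to ROA2 was 1.67, 1.59 and 2.00 in rhino 2, against 0.960, 1.25 and 0.974 in rhino 1. In each of these 3 pairs the animals did not overlap per kb. The exact permutation test of the per kb ratios gave p = 0.1, the smallest it can give. That is 0.2 after Benjamini-Hochberg adjustment over 6 pairs tested. In CPM without lengths, NONO had 449 and SFPQ 805 in rhino 1 replicate 1, a ratio within the range of rhino 2. TRA2A to TRA2B and ROA1 to ROA2 did not overlap in CPM either. Ratios overlapped for PTBP1 to PTBP3, MBNL1 to MBNL2 and HNRH1 to HNRH3, with p = 0.8, 0.4 and 0.7 by the same exact test. PTBP1 exceeded PTBP3 in all 6 libraries, by 3.44 to 9.46 times per kb, and the highest ratio was rhino 2 replicate 3. EWS to RBP56 had no value in rhino 1 replicate 2 and was not tested.

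The deposited transcript models allowed a look at the regulators' own exons, in the 5 libraries whose counts are listed per transcript. The 46 regulators had 245 assembled transcripts. A cassette exon was taken as an internal exon of some transcripts that an intron of others on the same strand spans. The exons on either side were not required to match. Such exons were found in 23 genes (40 exons). In 11 genes, 14 such exons had identical coordinates in models of both strands. Of these 14, 7 had a length that is not a multiple of 3. Whether including or skipping them shifts the reading frame was not tested, since the exons beside them need not match. Of the 7, the 46 and 26 nt exons of HNRPC had the same counts as each other in every library. Shares below are of the counts on transcripts that hold or skip the exon, with 95% Wilson intervals, and the counts are the assembler's division of reads among transcripts, so the intervals cover counting error only.

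SR genes are known in other mammals for poison exons, which bring a stop codon early, and long cassette exons were found in SRSF3, SRSF7 and TRA2B. The SRSF3 exon of 457 nt (scaffold 13, 37610413 to 37610869) was on 63.3% (57.9 to 68.5) and 80.7% (76.2 to 84.5) of the counts in rhino 2 replicates 2 and 3. In rhino 1 it was on 40.9% (39.6 to 42.2), 43.6% (38.2 to 49.2) and 57.4% (53.4 to 61.2), each below both libraries of rhino 2. The intervals of rhino 2 replicate 2 and rhino 1 replicate 3 overlapped. No other exon found on both strands had both libraries of rhino 2 above, or both below, all those of rhino 1. The SRSF7 exon of 448 nt (scaffold 11, 43330850 to 43331297) was on 53.4% (44.4 to 62.1) of the counts in rhino 2 replicate 3, against 49.1% (46.8 to 51.5), 0% (0 to 4.93) and 12.2% (8.37 to 17.6) in rhino 1. Rhino 2 replicate 2 had only 16 counts there and is not given a share. The TRA2B exon of 276 nt (scaffold 15, 26667084 to 26667359) was on 93.8% (88.5 to 96.7) and 94.1% (90.2 to 96.5) in rhino 2, against 96.9% (96.3 to 97.4), 100% (97.6 to 100) and 86.7% (83.1 to 89.6) in rhino 1. With 2 libraries against 3, and 1 of those counted on other models, no test of these shares was made.

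Several exons of the hnRNP genes differed widely between libraries of the same animal. ROA2 held a 36 nt exon (scaffold 1, 52655089 to 52655124), the length of the exon that tells the human B1 form from A2. It was on 0.241% (0.0661 to 0.874) and 22.5% (20.2 to 25.1) of the counts in rhino 2, against 41.4% (40.8 to 42.1), 19.98% (17.4 to 22.8) and 17.9% (16.5 to 19.4) in rhino 1. The skipping form was thus the larger in all 5 libraries. HNRPD held a 147 nt exon (scaffold 8, 66877426 to 66877572) on 14.3% (10.5 to 19.1) and 53.7% (48.1 to 59.2) in rhino 2, against 56.0% (54.8 to 57.1), 27.6% (22.4 to 33.4) and 76.0% (72.7 to 79.0) in rhino 1. HNRPM, with a 99 nt exon, ranged from 5.79% to 78.3%, and both ends of that range were libraries of rhino 1. The 60 and 139 nt exons of HNRH1 sat on the same transcripts, and their share was the steadiest, at 29.2% to 37.0% over the 5 libraries. The MBNL1 exon of 54 nt, the length of a human exon known to steer the protein to the nucleus, was on 78.4% (67.7 to 86.2) and 100% (97.6 to 100) in rhino 2, against 77.3% (75.5 to 79.0), 100% (97.0 to 100) and 100% (97.5 to 100) in rhino 1. For the exons of RBM39 (73 nt), HNRPC (46 and 26 nt) and HNRPF (55 nt), rhino 1 replicate 1 was at 48.7%, 78.9% and 52.5%, and the other libraries were at 96.2% or more, except HNRPF in rhino 1 replicate 2 at 0%.

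**Figure D5:**
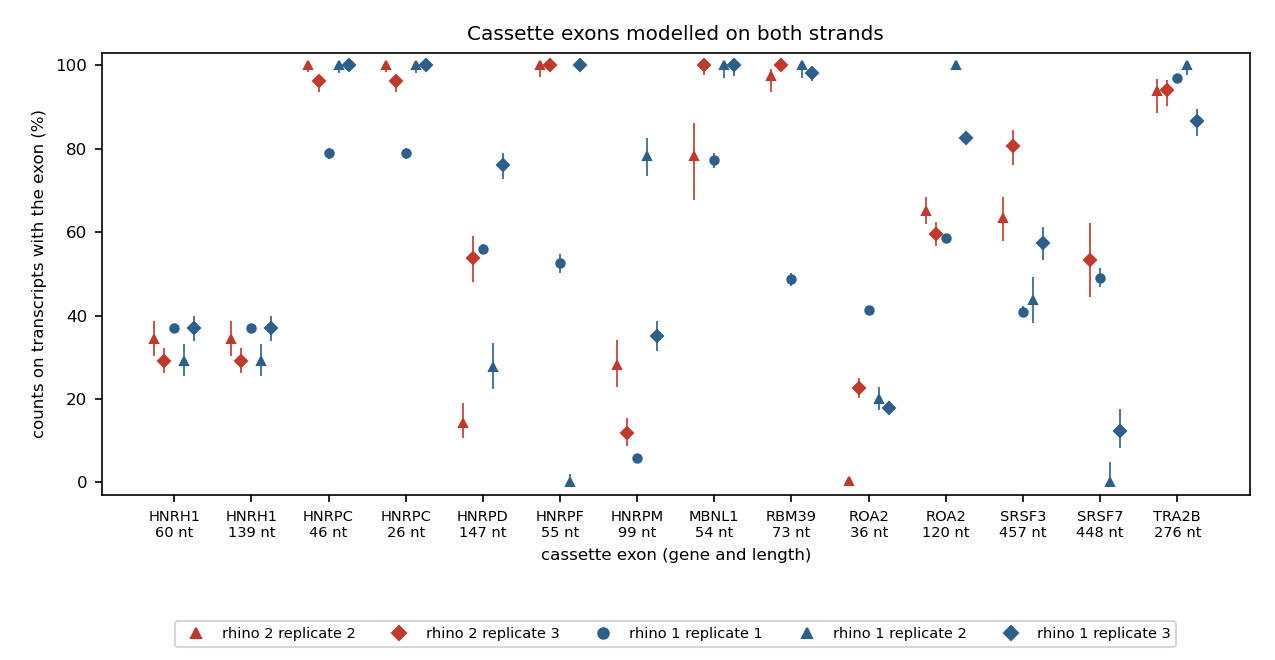
Share of counts, in %, on transcripts that hold each of 14 cassette exons found on both strands in 11 regulators, with 95% Wilson intervals, for the 5 libraries listed per transcript. The 2 libraries of rhino 2 lie above all 3 of rhino 1 for the SRSF3 exon alone, while the HNRPM exon ranges from 5.79% to 78.3% within rhino 1.

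The rest of the splicing and RNA processing machinery was read from 10 lists of 155 names, of which 148 had a locus and 134 were tested. None of the 134 passed edgeR's threshold, and 16 had an unadjusted p under 0.05 by edgeR, 4 higher and 12 lower in rhino 2. That is 11.9%, against 12.9% of all loci. DESeq2 called 7, or 5.22%, against 7.34% of all loci, and limma-voom 5, or 3.73%, against 8.93%. The median log2 fold change was -0.09, with 53 positive and 81 negative. Libraries did not overlap for 37, of which 6 were higher and 31 lower in rhino 2, where the shares over all loci tested were 10.4% higher and 14.0% lower. These lists share their 6 libraries with the regulators, so the values stand side by side only.

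In the Sm, LSm, U1 and U2 list, 13 of 15 tested log2 fold changes were negative, with a median of -0.57, and 6 had libraries that did not overlap, all lower in rhino 2. Over all loci tested, 52.8% of the values were above 0 and 24.4% did not overlap. RU2A, the U2 A' protein, had 22.3, 22.7 and 30.6 CPM in rhino 2, against 44.3, 61.0 and 62.1 CPM in rhino 1 (edgeR log2 fold change -1.03, SE 0.36, adjusted p = 0.283). LSM7, of the ring that binds U6 RNA, had 13.8, 0 and 12.98 CPM in rhino 2, against 23.3, 38.7 and 48.3 CPM in rhino 1 (edgeR adjusted p = 0.623). In the SF3A and SF3B list, which anchors the U2 snRNP at the branch point, 8 of 9 were negative (median -0.33) and 6 did not overlap, again all lower in rhino 2. SF3B2 had 130, 136 and 138 CPM in rhino 2, against 280, 208 and 248 CPM in rhino 1 (edgeR log2 fold change -0.77, SE 0.21; edgeR adjusted p = 0.160, DESeq2 adjusted p = 0.00946, limma-voom adjusted p = 0.0467). SF3B4 had 47.9, 31.3 and 64.9 CPM in rhino 2, against 83.8, 109 and 80.0 CPM in rhino 1 (edgeR log2 fold change -0.80, SE 0.33, adjusted p = 0.375). SF3B1, the largest subunit and one of the regulators, lay on the other side of 0 at 0.50.

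Of 12 U5 and tri-snRNP proteins 8 were negative and 3 did not overlap, with U5S1, the U5 GTPase gene EFTUD2, at a log2 fold change of -0.57 (edgeR adjusted p = 0.373) and PRP8, the scaffold of the catalytic centre, at -0.46 (edgeR adjusted p = 0.441). Single members did not overlap in 4 lists, 8.33% to 16.7% of those tested and so under the share of all loci. These were PRP19 at -0.58 in the PRP19 complex (12 tested), DX39A at -1.04 among the helicases (11), CASC3 at -0.43 among exon junction proteins (12) and SNR25 at -0.95 in the minor spliceosome (6). Of the 17 tested proteins of 3' end processing, CSTF3 at -0.72 and SYMPK at -0.56 did not overlap, or 11.8%. All these named genes were lower in every library of rhino 2, at edgeR adjusted p of 0.314 to 0.663. None of the 9 SR protein kinases and importers, the CLK and SRPK kinases among them, had libraries that did not overlap.

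Among 31 further hnRNPs and splicing regulators tested, 16 did not overlap, 6 higher and 10 lower in rhino 2, where 24.4% of all loci did not overlap, 10.4% higher and 14.0% lower. DDX17, an RNA helicase that acts in splicing and as a coregulator of oestrogen receptor in other mammals, had 955, 824 and 835 CPM in rhino 2, against 387, 326 and 479 CPM in rhino 1. Its log2 fold change was 1.23 (SE 0.22; edgeR adjusted p = 0.0625, DESeq2 adjusted p = 6.22e-08, limma-voom adjusted p = 0.00678). With model lengths entered, DDX17 passed edgeR's threshold at an adjusted p of 0.0436. YTDC1, the nuclear reader of the m6A mark, had 373, 229 and 318 CPM in rhino 2, against 185, 201 and 170 CPM in rhino 1 (edgeR log2 fold change 0.83, SE 0.22; edgeR adjusted p = 0.160, DESeq2 adjusted p = 0.0122, limma-voom adjusted p = 0.0493). MBNL3, another muscleblind gene, had 178, 148 and 153 CPM in rhino 2, against 339, 312 and 357 CPM in rhino 1. Its log2 fold change was -0.98 (SE 0.18; edgeR adjusted p = 0.0727, DESeq2 adjusted p = 6.89e-07, limma-voom adjusted p = 0.0128), beside 0.61 for MBNL2 and -0.00411 for MBNL1. DAZP1 (DAZAP1), an RNA-binding protein first known from the testis, had 50.5, 76.7 and 87.2 CPM in rhino 2, against 136, 204 and 121 CPM in rhino 1 (edgeR log2 fold change -0.99, SE 0.30, adjusted p = 0.221).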

How the data were processed

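RNA-seq counts of granulosa cells from 2 southern white rhinoceroses were used as deposited, 3 libraries per animal. The deposited values are raw read counts per transcript in 5 libraries and per gene in rhino 2 replicate 1, per the file headers. Trimmomatic, HISAT2 and StringTie are named in the submitters' processing notes, with no version, and the labels' protocols name a PicoPure RNA isolation and a NEBNext Ultra II RNA library kit. Assembled genes are the submitters' models, and the genome build is not given in the sources used here. Scaffold coordinates are those of their table of transcript positions.

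Transcript counts were summed to 40656 genes. An unnamed gene was joined to the named gene on the other strand where their exons overlapped over at least 50% of the shorter exonic length (14075 genes), and 675 unnamed ones to each other, which left 25906 loci. For a name on several loci the one with the highest total was used. CPM is counts per 1000000 of the library total, and CPM per kb divides by the exonic length of the model on the strand that holds that library's counts. A locus without counts was given an upper limit of 3 counts.

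The animals were compared in edgeR 4.0.16 under R 4.3.3 (TMM, filterByExpr, quasi-likelihood test, two-sided), with Benjamini-Hochberg adjustment over all 8532 loci tested and a threshold of 0.05. SE is the absolute log2 fold change divided by the square root of F. Fold changes are rhino 2 over rhino 1. DESeq2 1.42.0, limma-voom (limma 3.58.1), other scalings, filters and joinings, a replicate block and leaving out each library were the alternatives. After the data were seen, 2 were added: an offset for model length, and the transcripts of genes named otherwise. The fits were first tested on simulated data.

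The members and lists were chosen with earlier results of these data known. Values in full are given for the 12 tested regulators with the largest absolute log2 fold change, the 8 highest and the lowest per kb, and any past the threshold. From each other list come up to 2 genes per direction whose libraries did not overlap. Cassette exons are given where a library had at least 20 counts on transcripts that hold or skip them. Transcript-level shares do not cover rhino 2 replicate 1.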

Additional observations from a re-analysis of the deposited data

Results flagged for a closer look

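SRSF2, ROA3 and HNRPQ had counts from the named strand only, and the libraries of the opposite strand showed signal in data that the comparison does not use. By the joining rule these 3 loci have no opposite-strand partner, and they had 441, 663 and 158 CPM in rhino 1 replicate 1 and at most 16.6 CPM in the other 5 libraries. Unnamed transcripts on their opposite strand lie in genes that carry another name (MET23 for SRSF2, NF2L2 for ROA3, BEST1 for HNRPQ), and cover 94.4%, 68.1% and 93.3% of the shorter exonic length. In the 5 libraries of that strand these transcripts had at least 359 CPM for SRSF2, at least 466 CPM for ROA3 and at least 117 CPM for HNRPQ, and at most 506, 602 and 205 CPM. In rhino 1 replicate 1 they had 8.95, 15.1 and 0.828 CPM. Added to the loci, they gave log2 fold changes of 0.08 for SRSF2, -0.07 for ROA3 and 0.22 for HNRPQ, at edgeR adjusted p of 0.966, 0.979 and 0.887. SRSF2 is named at 2 loci, so its value is uncertain.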

How the results depend on the processing

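Of the 43 tested regulators, 27 kept the sign of their log2 fold change under every alternative that gave a value, and the 16 that did not were at most 0.29 from 0 (SRSF4). The regulators past the threshold were 0 with edgeR under each alternative that kept a filter on low counts, including each left-out library. They were 2 with no filter (SRSF2 and ROA3, whose counts come almost wholly from rhino 1 replicate 1), 7 with DESeq2 and 4 with limma-voom. Their median log2 fold change was -0.0449 with library totals alone, where the median of all loci was -0.09 in place of 0.04, and -9.78 with genes as deposited, where 2 regulators could be tested. The members of the other lists past the threshold were 3 with no filter (DDX17, PCBP2 and RBMX), 7 with DESeq2, 5 with limma-voom, and 1 (DDX17) both with loci on both strands only and with the model length offset.

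All loci past the threshold, 47, came to 80 with library totals alone, 353 with no filter, 26 with a mean of at least 5 CPM, 626 with DESeq2, 762 with limma-voom, 0 with genes as deposited (239 at an unadjusted p under 0.05), 84 with strands joined at any overlap, 142 with loci on both strands only and 135 with the model length offset. They were 0 to 49 with 1 library left out: 49 without rhino 1 replicate 1, 4 and 0 without rhino 1 replicates 2 and 3, and 1 without each library of rhino 2. The cause of these shifts was not tested. With the replicate number as a block, edgeR called 0 loci (893 at an unadjusted p under 0.05) and 0 regulators (8 at an unadjusted p under 0.05). Same-numbered libraries of the animals correlated by 0.212, 0.134 and 0.00626 in their deviations. Replicates 1 and 2 each correlated best with their own number and replicate 3 did not, and with 1 pair under 0.1 the numbers were not taken to pair the libraries.

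Signs turned as follows, as log2 fold changes. With DESeq2, SRSF7 was -0.0229 and SRS11 -0.00455, and with its size factors they were -0.00789 and -0.00188. With genes as deposited, SRSF4 was -9.32. With library totals alone, SRSF1 was -0.0507, SRSF7 -0.13, SRS11 -0.12, HNRPF -0.0277, HNRPR -0.0449 and KHDR1 -0.0309. With limma-voom, SRSF7 was -0.0262, SRS11 -0.00853 and MBNL1 0.0155. MBNL1 was 0.00850 with a mean of 5 CPM, 0.00937 with loci on both strands only and 0.00819 with the replicate block, where RBP56 was 0.70. With no filter, SRSF7 was -0.00961 and SRS11 -0.00855. With the model length offset, SRSF1 was -0.38, SRS10 0.18, SRS11 -0.0308, HNRPR -0.000268, PTBP1 -0.0153, RBP56 0.0613, MBNL1 0.10, KHDR1 -0.0680 and NONO -0.0214. With 1 library left out, the values ranged from -0.22 to 0.34 for SRSF1, -0.23 to 0.0267 for SRSF3, -0.0718 to 0.0806 for SRSF7, -0.38 to 0.0296 for SRS10, -0.25 to 0.17 for SRS11, -0.00478 to 0.33 for ZRAB2, -0.31 to 0.0492 for HNRPU, -0.0399 to 0.34 for PTBP1, -0.63 to 0.46 for RBP56, -0.21 to 0.17 for MBNL1, -0.46 to 0.0329 for CELF1 and -0.13 to 0.28 for KHDR1. The log2 difference in the PTBP1 to PTBP3 ratio, rhino 2 minus rhino 1, was 0.32 and ranged from -0.12 to 0.61, and that of HNRH1 to HNRH3 from -0.60 to 0.08.

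Of the 8 highest regulators per kb, 6 stayed with CPM alone (SF3B1 and SFPQ in place of HNRPD and HNRPL), 7 with count-weighted transcript lengths (HNRPC in place of HNRPU) and 8 without rhino 1 replicate 1. Depth limits low values most in rhino 1 replicate 2, where 1 count is worth 1.49 CPM.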
